A study of Homo sapiens with 8 samples.

Results

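The histone genes of the HIST series of symbols were taken as every gene whose symbol starts with HIST and a number, which found 70 of the 19158 genes in each library. The symbol gives the cluster (HIST1, HIST2, HIST3 or HIST4) and the class of protein, and by class there were 6 genes for H1, 17 for H2A, 18 for H2B, 15 for H3 and 14 for H4. By cluster there were 54 genes in HIST1, 12 in HIST2, 3 in HIST3 and 1 in HIST4. RNA came from A549, an established human lung adenocarcinoma epithelial line of labelled genotype WT, grown with 5% FBS. The 4 untreated wells received no drug, and the 4 other wells received dexamethasone, a synthetic glucocorticoid, at 1 µM for 48 h. All 8 libraries carried the replicate numbers 1, 3, 4 or 5 and the label batch 1, and A549 is 1 tumour line. The libraries were made from total RNA after removal of ribosomal RNA and with random primers, so RNA without a poly(A) tail could enter them.

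Core histones H2A, H2B, H3 and H4 form the octamer around which DNA is wrapped, and the linker histone H1 binds where the DNA enters and leaves it. Most HIST genes are replication dependent: they have no introns, they are transcribed mainly in S phase when new chromatin is built, and their mRNA ends in a conserved stem-loop in place of a poly(A) tail. The stem-loop is bound by SLBP, which serves 3′ end processing, translation and the timed decay of the mRNA. Some HIST genes also make longer polyadenylated mRNA that bypasses the stem-loop and is found in cells that have left the cycle.

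Values are FPKM, which relate the fragments of a gene to the length of its transcript and to the total of its library. Steps between low values corresponded to 24980000 to 28660000 fragments per library. FKBP5, TSC22D3 and PER1, textbook glucocorticoid targets, summed to 13.0 to 17.1 FPKM in untreated and 199 to 292 FPKM in treated libraries, so each library carried the response of its label. The 6 epithelial markers summed to 3470.2 to 5092 FPKM untreated and 4558 to 6919.9 FPKM treated, with EPCAM below 1 FPKM in all libraries. The fibroblast, leukocyte and endothelial marker lists each summed to at most 3.14 FPKM in any library, with COL1A2, PTPRC and CD3E at 0. Both libraries numbered 5 stood apart on the second principal component, at -22.3 untreated and -16.0 treated, where the others lay between -2.89 and 12.9. The HIST and class sums, the family median and some single genes are given with and without them. Fold changes of most single genes are given with all 8 libraries only. Nothing in the labels says that the wells were separate cultures from the start, so p-values measure the spread between these wells.

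The stem-loop shows what the family shares, and where its classes differ, in the RNA itself. In the GRCh38 genome with GENCODE v44 coding ends, a stem of 6 base pairs around a loop of 4 bases was searched. It had to lie within 150 bases after the stop codon, with at most 1 mismatch in the stem. The search also required GG at its start, CC at its end and TT as the first 2 bases of the loop. These letters are thus shared by every match because the search fixed them. The element was found in 67 of the 70 genes. It lay 23 to 68 bases after the stop, with a median of 36. The lines below give this element with 5 bases on each side, in capitals for the 16 bases of stem and loop. They are shown for the largest H3 contributor, the H1 and H2B genes with large falls, the leading H4 gene, a gene whose level was alike in both groups, a gene with a mismatch in the stem and the single HIST4 gene.
HIST1H3B (chr6:26031597-26031612, minus strand): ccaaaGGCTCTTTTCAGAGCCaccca
HIST1H1B (chr6:27866797-27866812, minus strand): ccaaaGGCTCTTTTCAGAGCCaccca
HIST1H2BM (chr6:27815469-27815484, plus strand): ccaaaGGCTCTTTTCAGAGCCgtcca
HIST1H4C (chr6:26104317-26104332, plus strand): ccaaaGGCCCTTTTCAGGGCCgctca
HIST1H2AC (chr6:26124669-26124684, plus strand): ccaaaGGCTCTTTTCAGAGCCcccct
HIST1H2AK (chr6:27837885-27837900, minus strand): aaaaaGGTTCTTTTCAGAGCCaccta
HIST4H4 (chr12:14770724-14770739, minus strand): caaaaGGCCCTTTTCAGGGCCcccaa
The left arm was GGCTCT in all 6 H1 elements, 16 of 17 in H2A, all 17 found in H2B and all 14 found in H3. In H4 it was GGCCCT in all 13 found. HIST1H2AK carried the exception GGTTCT, 1 of the 2 stems with a mismatch. HIST1H2BI, HIST1H3E and HIST1H4L gave no match to this pattern in the window searched.

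After dexamethasone most of these genes were lower, none was higher, and the summed level of the family was 3.68-fold lower. Of the 70 genes, 58 passed the filter on low values (at least 0.5 FPKM in at least 4 libraries) and were tested with limma, Benjamini-Hochberg adjusted over all 12161 genes tested, with a call at an adjusted p under 0.05. Of these 58, 52 were called lower and 0 higher, with 0 higher at an unadjusted p under 0.05 too, while 14.6% of all genes tested were called lower and 12.3% higher. These counts include HIST1H2AD, which passed the filter through its untreated libraries alone. At a filter of 1 FPKM in 4 libraries 51 of 57 were called lower. These still include HIST2H3PS2, which passed that higher filter through its untreated libraries alone. The median log2 fold change was -1.88 over the 58 genes and 0.01 over all genes tested, and the range ran from -2.39 for HIST2H2BF to 0.07 for HIST2H4B. The size of this median depended on the setting. It was -1.56 without untreated replicate 5, -1.71 without both libraries numbered 5 and -1.58 with the trend on transcript length removed. In all 52 called genes every treated library lay below every untreated one, which held for 19.2% of all genes tested. Fold changes are on the log2(FPKM + 1) scale, which understates the change of low genes. In bulk RNA, fewer cells making a histone mRNA and less of it per cell cannot be told apart.

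**Figure D1:**
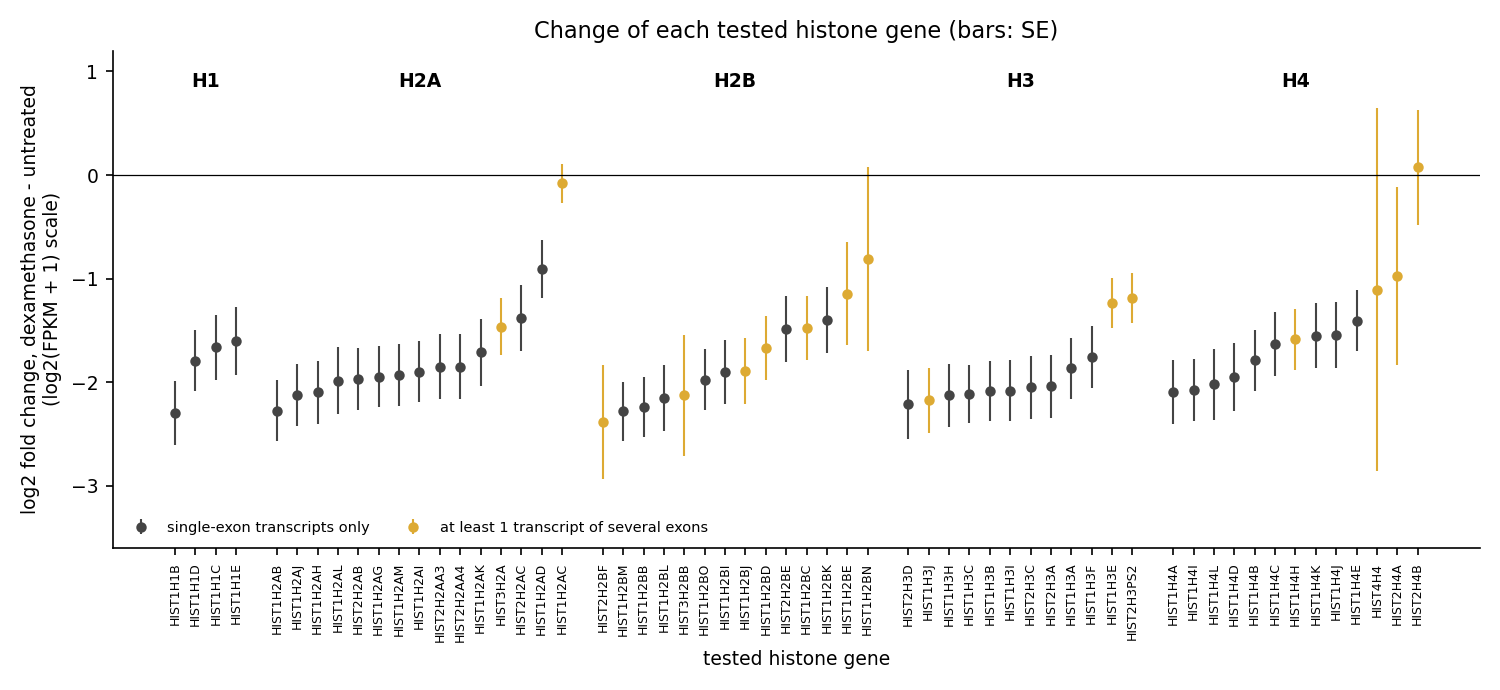
Log2 fold change (dexamethasone minus untreated, log2(FPKM + 1) scale) of each of the 58 tested histone genes, ordered within its class, with bars of 1 SE from limma over 4 against 4 libraries. Genes with only single-exon transcripts (black) all lie below 0, and the 6 genes that were not called are among those with a transcript of several exons (yellow).

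The family held 5.80%, 5.50%, 5.72% and 10.3% of all FPKM in untreated replicates 1, 3, 4 and 5, and 1.68%, 1.74%, 1.90% and 2.52% in the treated ones. A share of FPKM is larger than a share of fragments for genes as short as these. The HIST sum was 20857, 19100.2, 20443 and 38602 FPKM untreated and 5904, 5889.5, 6445 and 8681 FPKM treated. Untreated replicate 5 was thus the highest by far and dexamethasone replicate 5 the highest of its group, without overlap between the groups. The means were 24750.5 ± 9265 FPKM and 6729.8 ± 1326 FPKM (SD, n = 4), 3.68-fold lower after treatment and 3.31-fold lower without the libraries numbered 5.

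All 5 classes were lower, H3 by most and H4 by least. The mean class sum was 3.39-fold lower for H1, 3.75-fold for H2A, 3.63-fold for H2B, 4.39-fold for H3 and 3.23-fold for H4. Without the libraries numbered 5 these were 3.13, 3.41, 3.24, 3.96 and 2.85-fold, in which H3 was again the largest and H4 the smallest. With the genes that have transcripts of several exons left out, H3 was again the largest at 4.37-fold, but H1 (3.39-fold) and not H4 (3.43-fold) was the smallest. No test was run on sums over genes, and differences are read here only against the spread of the libraries.

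As a share of the HIST sum, H3 went from 21.1%, 21.8%, 22.8% and 21.1% untreated to 18.5%, 17.8%, 18.5% and 17.6% treated. The share of H4 was 21.8%, 21.4%, 20.1% and 22.3% untreated and 24.6%, 25.8%, 23.3% and 24.5% treated. That of H1 was 9.34%, 9.32%, 8.92% and 8.88% against 9.61%, 9.74%, 9.80% and 10.1%. In these 3 classes no treated library overlapped an untreated one: H3 had the smaller share after treatment, and H4 and H1 the larger. H2A (27.9% ± 0.989 and 27.3% ± 0.528, SD, n = 4) and H2B (19.9% ± 0.936 and 20.3% ± 1.02) overlapped between groups. With the 17 genes that have transcripts of several exons left out, H3 still went from 22.9% to 19.7%, H4 from 19.9% to 21.9% and H1 from 10.9% to 12.0%, each without overlap.

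**Figure D2:**
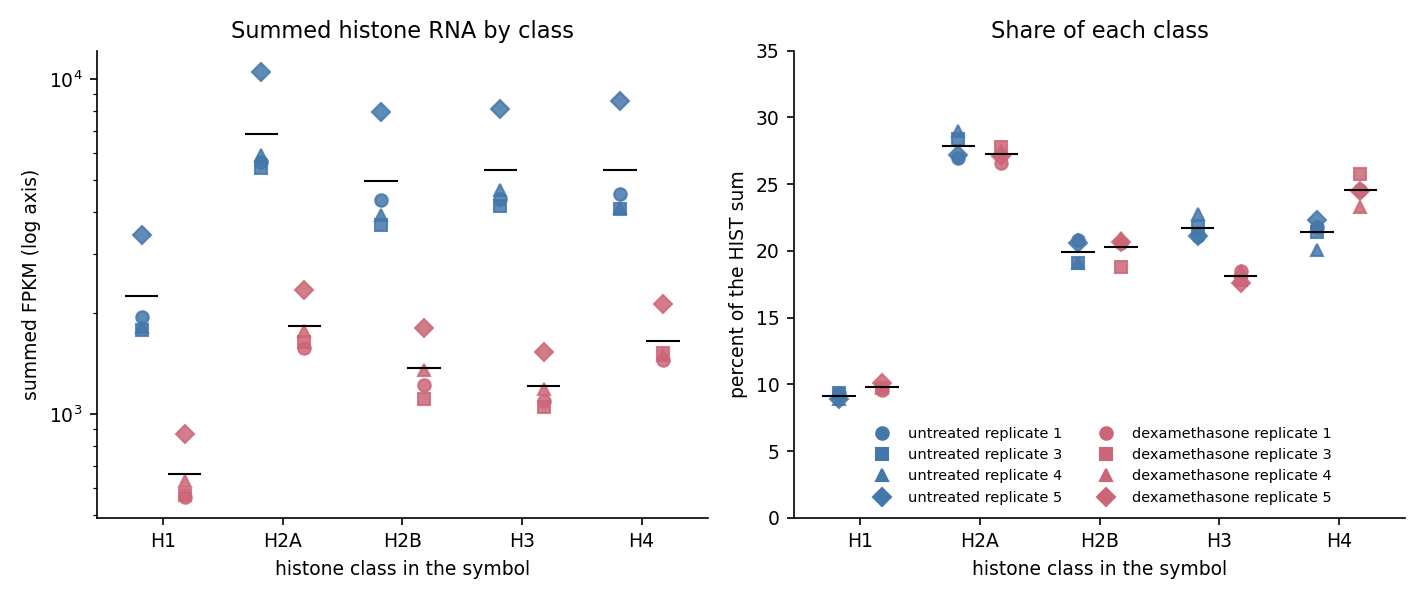
Left, summed FPKM of each histone class (log axis), and right, its percent of the HIST sum, in each of the 4 untreated (blue) and 4 dexamethasone (red) libraries, with lines for the means. Every class sum is lower after treatment, untreated replicate 5 is the highest in each class, and the H3 share goes from a mean of 21.7% to 18.1% while that of H4 goes from 21.4% to 24.6%.

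The linker class rested on 4 genes, all called lower, and the other 2, HIST1H1A and the testis gene HIST1H1T, had means below 1 FPKM. HIST1H1C (H1.2), the most abundant, was at 801, 730.1, 747 and 1389 FPKM untreated and 239, 247, 270.2 and 382 FPKM treated. It fell by 1.66 ± 0.31 on the log2 scale (SE here and below; limma adjusted p = 0.00389), and HIST1H1E (H1.4) gave -1.60 ± 0.33 (adjusted p = 0.00568). HIST1H1B (H1.5) had the second largest fall of all tested histone genes: 210.4, 186, 189.6 and 358 FPKM became 36.8, 42.9, 44.5 and 61.0 FPKM, a log2 fold change of -2.30 ± 0.31 (adjusted p = 0.000521). The 4 genes thus did not keep their proportions within the class. HIST1H1B made up 10.8%, 10.4%, 10.4% and 10.4% of H1 FPKM untreated and 6.49%, 7.49%, 7.04% and 6.98% treated, while HIST1H1C went from 40.9% ± 0.27 to 42.9% ± 0.647 and HIST1H1E from 26.9% ± 0.681 to 29.3% ± 0.819, each without overlap.

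Of 15 tested H2A genes 14 were called lower, and the class was spread over many genes, with HIST2H2AA3, HIST2H2AA4 and HIST2H2AC together at 44.1% of its FPKM. HIST2H2AA3 was at 920.4, 889, 990.5 and 1749 FPKM untreated and 255, 277, 297 and 401 FPKM treated. Its coding sequence is identical to that of HIST2H2AA4 (1101 ± 397 and 298 ± 63.0 FPKM), both had a log2 fold change of -1.85 ± 0.32 (limma adjusted p = 0.00217), and reads of the 2 cannot be assigned with certainty. HIST2H2AC fell less than most: 588, 574, 627 and 1101 FPKM became 224, 242, 253 and 370.3 FPKM, a log2 fold change of -1.38 ± 0.32 (adjusted p = 0.0104). It held 10.4% to 10.6% of the class in every untreated library and 14.3% to 15.7% in every treated one. HIST1H2AB moved the other way in share, from 6.24% ± 0.163 to 4.69% ± 0.309, with 353, 345, 376 and 629.6 FPKM untreated, 79.9, 74.8, 77.2 and 112 FPKM treated and a log2 fold change of -2.27 ± 0.29 (adjusted p = 0.000411). HIST2H2AB fell from 555 ± 196 to 138 ± 23.4 FPKM, and HIST3H2A from 41.1 ± 14.3 to 13.9 ± 1.53 FPKM. The exception, HIST1H2AC, is described with the genes that were not called.

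Of 14 tested H2B genes 12 were called lower, and 11 of the 18 members had a mean of at least 100 FPKM, so no gene dominated the class. HIST1H2BK, the most abundant, was at 667, 503, 516 and 1011 FPKM untreated and 239, 190.1, 256 and 313 FPKM treated, a log2 fold change of -1.40 ± 0.32 (limma adjusted p = 0.00968). HIST1H2BM was at 301, 256, 268 and 470.4 FPKM untreated and 53.4, 60.0, 65.7 and 79.7 FPKM treated, a log2 fold change of -2.28 ± 0.28 (adjusted p = 0.000334). Within the class their shares moved in opposite directions. HIST1H2BK held 15.4%, 13.8%, 13.2% and 12.7% of H2B FPKM untreated and 19.6%, 17.2%, 19.0% and 17.4% treated, and HIST1H2BM went from 6.67% ± 0.516 to 4.78% ± 0.486. HIST1H2BC and HIST2H2BE also took a larger share after treatment, 10.4% to 13.1% and 3.24% to 4.02%, without overlap. HIST1H2BO, HIST1H2BD and HIST1H2BJ fell by 1.98, 1.67 and 1.89 on the log2 scale, with shares that overlapped between groups.

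HIST2H2BF had the largest fitted fall of the family, and 1 library set its size. Its values were 278, 307, 264 and 1333 FPKM untreated and 71.9, 65.2, 76.1 and 110.2 FPKM treated, so that untreated replicate 5 stood far above the other 3 and the groups did not overlap. The log2 fold change was -2.39 ± 0.55 (limma adjusted p = 0.0109) and -1.74 without untreated replicate 5. Its listed span overlaps those of HIST2H3D and HIST2H3A, and how reads in such overlaps were counted is not stated.

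All 12 tested H3 genes were called lower, with the largest median fall of any class (-2.07). HIST1H3B alone held 28.9% of H3 FPKM over all libraries, and its share was alike in both groups (29.0% ± 0.733 and 29.1% ± 0.762). Its levels were 1284, 1215, 1378 and 2270.4 FPKM untreated and 330.3, 306, 338 and 440.2 FPKM treated, a log2 fold change of -2.09 ± 0.29 (limma adjusted p = 0.000684). HIST2H3D fell from 903 ± 362 to 189 ± 43.5 FPKM (log2 fold change -2.21 ± 0.33, adjusted p = 0.00105). HIST2H3A and HIST2H3C, with identical coding sequences, had log2 fold changes of -2.04 and -2.05. HIST2H3PS2, 98.8% identical to HIST2H3D in coding sequence, was low at 1.45 to 3.59 FPKM untreated and 0.337 to 0.895 FPKM treated. HIST1H3E and HIST1H3F were singled out after their values were seen, as the H3 genes that took a larger share without overlap: 0.489% to 0.844% and 3.16% to 3.95%.

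The H4 class, in which every copy encodes the same protein, had 10 of 13 tested genes called lower and held 3 of the 6 genes that were not called. HIST1H4C and HIST1H4B led it at nearly equal levels. HIST1H4C was at 872, 793, 893 and 1634 FPKM untreated and 284, 299, 328 and 398 FPKM treated, a log2 fold change of -1.63 ± 0.31 (limma adjusted p = 0.00399). HIST1H4B fell from 1043 ± 353 to 294 ± 47.4 FPKM (-1.79 ± 0.30, adjusted p = 0.00187), and HIST1H4H from 776 ± 252 to 253 ± 43.9 FPKM (-1.59 ± 0.29, adjusted p = 0.00349). Their shares of the class overlapped between groups. HIST1H4A and HIST1H4E, named after their values were seen, moved apart: from 7.17% ± 0.479 to 5.19% ± 0.46 and from 4.28% ± 0.212 to 5.00% ± 0.283.

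**Figure D3:**
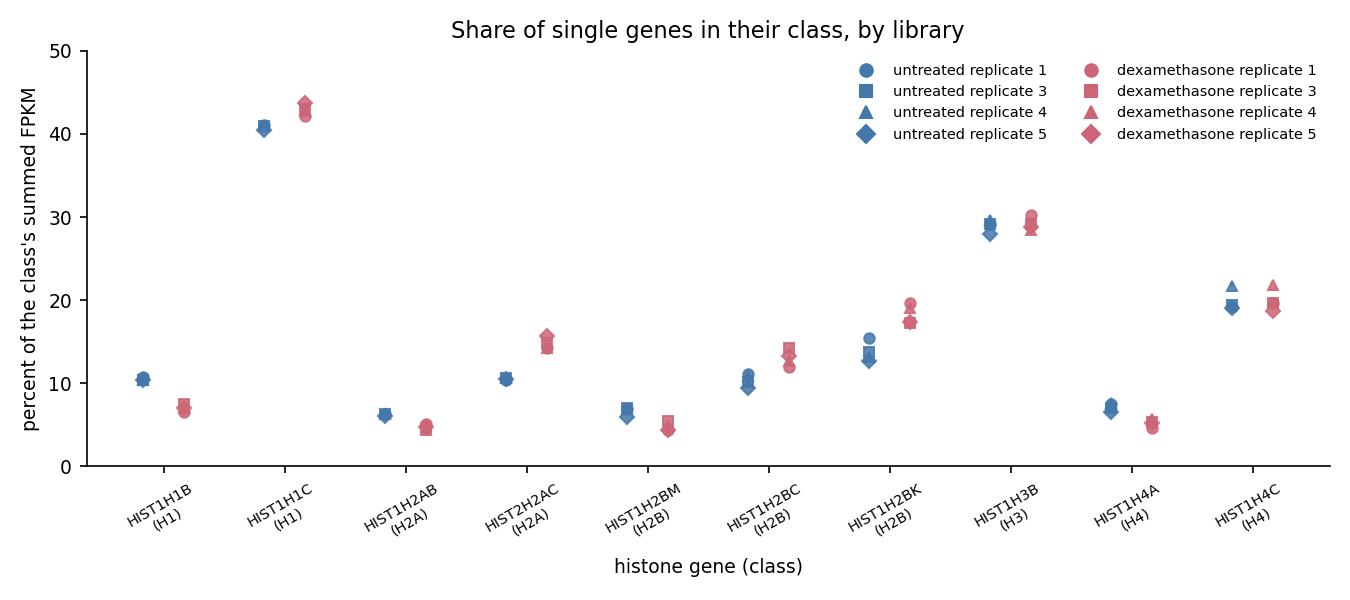
Percent of its class's summed FPKM held by each of 10 histone genes in each untreated (blue) and dexamethasone (red) library. HIST1H1B, HIST1H2AB, HIST1H2BM and HIST1H4A hold less after treatment and HIST2H2AC, HIST1H2BC and HIST1H2BK more, while the leading genes HIST1H3B and HIST1H4C keep alike shares.

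The clusters on chromosomes 6 and 1 moved in parallel. HIST1, on chromosome 6, held 74.4% ± 1.92 of the HIST sum untreated and 74.0% ± 1.25 treated, and HIST2, on chromosome 1, held 24.5% ± 1.73 and 24.2% ± 0.485. The cluster sums were 3.68-fold and 3.78-fold lower. In HIST1 40 of 43 tested genes were called lower, in HIST2 10 of 12 and in HIST3, also on chromosome 1, 2 of 2. The share called lower over all genes tested was 14.6%. HIST3 was the smallest of these 3 clusters, at 46.9, 50.6, 52.1 and 88.7 FPKM untreated and 12.8, 17.8, 20.3 and 22.3 FPKM treated. Its gene HIST3H2BB was at 14.3, 17.4, 15.8 and 26.0 FPKM untreated and 0.0854, 5.13, 6.03 and 6.44 FPKM treated, and dexamethasone replicate 1 was nearly without it. The log2 fold change of HIST3H2BB was -2.13 ± 0.58 (limma adjusted p = 0.0239), -1.46 without dexamethasone replicate 1, and -1.88 with an adjusted p of 0.0611 without untreated replicate 5. The single HIST4 gene is described next.

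The 6 tested genes that were not called were HIST1H2AC, HIST1H2BE, HIST1H2BN, HIST2H4A, HIST2H4B and HIST4H4. All of them are among the genes for which GENCODE v44 annotates a transcript of more than 1 exon. Of 16 tested genes of that kind 10 were called lower, with a median log2 fold change of -1.35, and of the 42 tested genes with single-exon transcripts alone all 42 were called lower, HIST1H2AD among them, with a median of -1.95. The split was chosen after the values were seen and no test was run on it. A missed threshold does not show that these 6 levels were equal, and 5 of them had a wide spread.

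HIST1H2AC was the one with a narrow spread. It was at 7.29, 10, 9.71 and 11.8 FPKM untreated and 10.9, 9.17, 8.60 and 7.91 FPKM treated. The groups overlapped throughout, and the log2 fold change was -0.08 ± 0.19 (limma adjusted p = 0.776). As the rest of its class fell, its share went from 0.129%, 0.185%, 0.164% and 0.113% of H2A FPKM to 0.692%, 0.559%, 0.485% and 0.336%. Its listed span, chr6:26124145-26139116, reaches 14432 bases past the stem-loop, and the transcript length its FPKM was scaled to is not stated. Which of its transcripts gave the fragments cannot be read from gene totals.

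The other 5 differed between libraries of 1 group by more than the groups differed. HIST2H4A was at 37.6, 69.1, 48.0 and 599 FPKM untreated and 89.9, 64.4, 23.0 and 37.1 FPKM treated, and its log2 fold change of -0.98 was 0.0015 without untreated replicate 5. HIST2H4B, with the identical coding sequence, was at 22.3, 30.6, 36.6 and 40.5 FPKM untreated and 17.7, 17.9, 34.5 and 113 FPKM treated, and its value of 0.07 was -0.54 without dexamethasone replicate 5. The high value of each lay in a different library numbered 5, and how reads that match both were assigned is not stated.

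HIST4H4, on chromosome 12, was at 192, 228, 3.48 and 477 FPKM untreated and 96.3, 142, 0.949 and 165 FPKM treated. Both libraries numbered 4 were thus near 0, and the log2 fold change of -1.11 ± 1.75 (limma adjusted p = 0.661) was -2.62 without untreated replicate 4 and 0.42 without dexamethasone replicate 4. HIST1H2BN, outside the rule for named genes, was at 5.30, 60.0, 10.4 and 15.4 FPKM untreated and 12.8, 2.02, 3.49 and 39.5 FPKM treated. HIST1H2BE was at 75.7, 76.8, 80.9 and 172 FPKM untreated and 47.0, 16.4, 52.6 and 79.4 FPKM treated, with only dexamethasone replicate 5 above any untreated library. Its log2 fold change was -1.15 ± 0.50 (adjusted p = 0.121), and without dexamethasone replicate 5 it was -1.47 with an adjusted p of 0.0498. The listed span of HIST1H2BE covers that of HIST1H2BD. HIST4H4 and HIST1H2BE were both lower in the treated library at each of the 4 replicate numbers. With the replicate number in the fit as a block, both were called (limma adjusted p = 0.00153 and 0.0099). Whether these numbers pair the libraries was not settled.

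**Figure D4:**
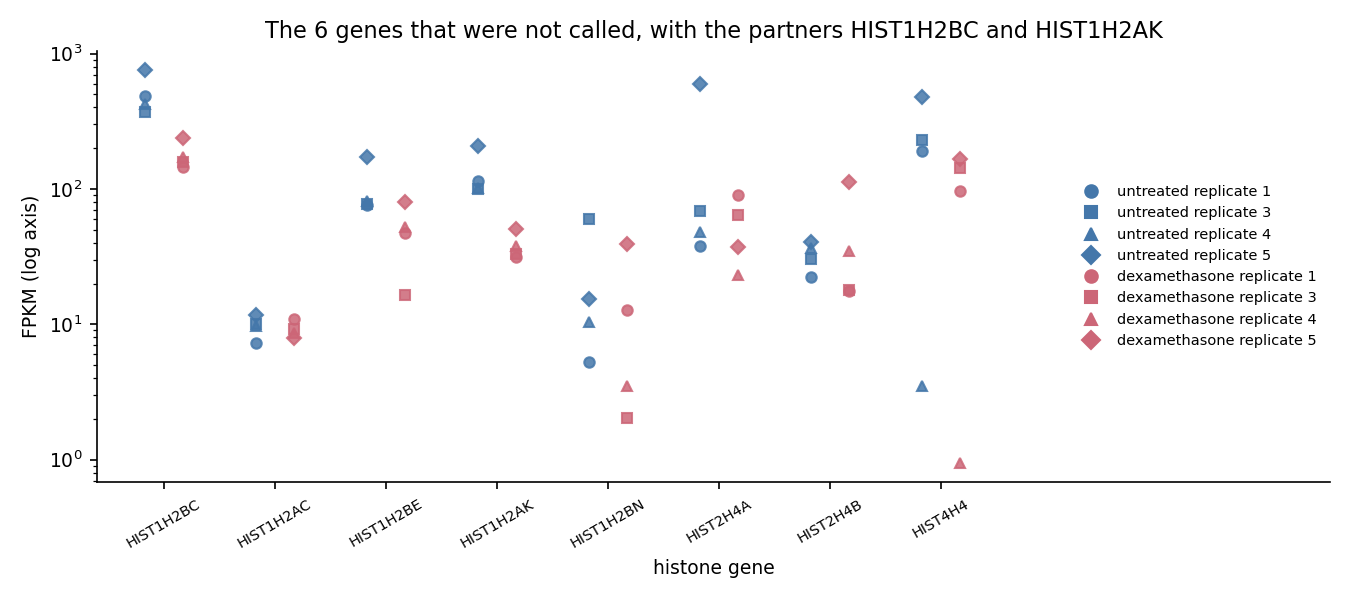
FPKM (log axis) in each untreated (blue) and dexamethasone (red) library for the 6 tested histone genes that were not called, with HIST1H2BC and HIST1H2AK, which face HIST1H2AC and HIST1H2BN across a shared promoter region. HIST1H2AC lies between 7.29 and 11.8 FPKM in all 8 libraries, while HIST1H2BN, HIST2H4A, HIST2H4B and HIST4H4 scatter within each group.

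A list of 13 members known for polyadenylated forms, written from general knowledge, had 12 tested genes, of which 9 were called lower with a median log2 fold change of -1.48. Of the 46 other tested members 43 were called lower, with a median of -1.96. The listed genes held 24.1%, 22.6%, 21.9% and 22.3% of the HIST sum untreated and 26.9%, 26.8%, 25.9% and 27.5% treated, without overlap. Their sum was 3.11-fold lower, against 3.89-fold for the other members. The listed genes that fell were HIST1H1C, HIST1H2BC, HIST1H2BD, HIST1H2BJ, HIST1H2BK, HIST1H4H, HIST2H2AA3, HIST2H2BE and HIST3H2A, and the 3 not called were HIST1H2AC, HIST1H2BE and HIST4H4. HIST2H2AA3 is in the list while HIST2H2AA4, with the identical coding sequence, counts among the other members. The list also differs from GENCODE v44. The listed HIST1H1C, HIST1H2BK and HIST2H2AA3 have no annotated transcript that ends more than 200 bases past the stem-loop. HIST1H2BN, HIST2H2BF, HIST2H4A, HIST2H4B and HIST3H2BB have one but count among the other members. No test compared the list with the other members, and the polyadenylated part of any gene's RNA was not measured.

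Many H2A and H2B genes face each other and start from a shared stretch of DNA. There were 13 pairs of members on opposite strands with starts pointing away from each other within 1000 bases, 12 of them of 1 H2A and 1 H2B gene, at a median distance of 240 bases. In 9 pairs both genes were tested, and in 7 of these both were called lower, where 52 of all 58 tested members were called lower. HIST1H2AM and HIST1H2BO fell alike, at -1.93 and -1.98, as did HIST1H2BJ and HIST1H2AG, at -1.89 and -1.95. The listed spans of HIST1H2BJ and HIST1H2AG overlap, and both cover HIST1H2BK. Whether reads of these genes were counted for more than their own gene is not stated. HIST1H2BK and HIST1H2AH, 251 bases apart, differed more, at -1.40 and -2.10. HIST1H2BC and HIST1H2AC, with 246 bases between their starts, differed most: HIST1H2BC was at 482, 371, 426 and 751 FPKM untreated and 146, 158, 171 and 239.6 FPKM treated, a log2 fold change of -1.48 ± 0.31 (limma adjusted p = 0.00681), beside the -0.08 of HIST1H2AC. Differences within pairs were not tested.

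Promoter windows, from 250 bases before to 50 after the start in RefSeq for GRCh38.p14, matched 65 of the 70 genes. They are shown for the facing pair whose genes differed, for an H2B gene with a large fall and for an abundant H4 gene, with capitals for 3 motifs searched on both strands. The octamer was searched as ATTTGCAT. The TATA box was searched as TATAAA. The third motif was CCAAT.
HIST1H2AC (chr6:26123922-26124221, plus strand): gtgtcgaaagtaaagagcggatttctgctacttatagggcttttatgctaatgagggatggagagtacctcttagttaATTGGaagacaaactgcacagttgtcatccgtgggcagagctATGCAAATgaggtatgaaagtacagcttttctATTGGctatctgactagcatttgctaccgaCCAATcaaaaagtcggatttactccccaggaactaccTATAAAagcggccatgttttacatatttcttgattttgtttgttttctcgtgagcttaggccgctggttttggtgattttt
HIST1H2BM (chr6:27814772-27815071, plus strand): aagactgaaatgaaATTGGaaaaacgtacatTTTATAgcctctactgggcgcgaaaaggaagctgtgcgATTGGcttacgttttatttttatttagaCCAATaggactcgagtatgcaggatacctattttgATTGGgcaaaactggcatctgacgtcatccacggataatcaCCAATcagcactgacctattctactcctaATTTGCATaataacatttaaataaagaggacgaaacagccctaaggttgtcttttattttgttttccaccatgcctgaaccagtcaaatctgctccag
HIST1H4B (chr6:26027234-26027533, minus strand): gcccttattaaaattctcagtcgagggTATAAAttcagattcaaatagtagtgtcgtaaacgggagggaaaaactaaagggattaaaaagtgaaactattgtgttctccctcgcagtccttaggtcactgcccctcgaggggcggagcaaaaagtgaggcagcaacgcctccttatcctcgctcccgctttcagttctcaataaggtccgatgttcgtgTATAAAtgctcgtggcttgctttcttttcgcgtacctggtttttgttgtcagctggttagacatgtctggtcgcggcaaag
The HIST1H2AC window holds most of the DNA of the HIST1H2BC window read from the other strand, with 1 octamer between the facing starts. The octamer is the site of the POU factor OCT1 in H2B promoters. It was present in 14 of 18 H2B windows, 11 of 16 H2A, 1 of 13 H3, 0 of 6 H1 and 0 of 12 H4 windows. Over all 35116 promoter windows 1.77% held it. The 1 H3 window with it, that of HIST1H3D, is the same stretch as the HIST1H2AD window. Windows of facing genes can hold the same octamer, so the classes are not separate counts. CCAAT was in every H1, H2A, H2B and H3 window matched and in 3 of 12 H4 windows, against 34.6% of all windows. TATAAA was on either strand in 43 of the 65 windows, against 11.5% of all. In the HIST1H2BM window it was found only on the other strand, as TTTATA, towards the facing gene HIST1H2AJ. A match thus need not belong to the gene of its window. Matches that share letters with another motif were accepted. A match is a description of the letters and no evidence of binding.

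The 12 genes that were not tested were at low values in both groups. Together with HIST1H2AD, which was tested through its untreated libraries alone, they make 13 genes with a mean below 1 FPKM. HIST1H2AD was at 0.690, 0.999, 0.752 and 2.68 FPKM untreated and at most 0.446 FPKM treated, and passed the filter only where it was high. The listed span of HIST1H2BF, chr6:26195554-26263738, holds 11 members, of which 7 had a mean below 1 FPKM. In the same span HIST1H1D (484 ± 161 FPKM untreated), HIST1H4E (226 ± 81.1 FPKM) and HIST1H3F (169.6 ± 63.5 FPKM) were abundant. Of the 13 low genes 7 overlap another listed gene, as do 27 of the 57 others. How overlapping genes were counted is not stated. HIST1H2AA, HIST1H2BA, HIST1H1A and HIST3H3 were among those listed at 0 in at least 1 library of each group.

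Genes that work with the histones were compared by lists written from general knowledge. Among all genes tested 14.6% were called lower and 12.3% higher. DNA replication genes, active when histone mRNA is made, had 29 of 30 tested genes called lower and 0 higher, with a median log2 fold change of -1.18. Their sums were 1315, 1348, 1406 and 1309 FPKM untreated and 529 to 584 FPKM treated. The replication genes thus moved with the histone genes but by less. In contrast to the histone sums, the sum of this list was not highest in untreated replicate 5. Its single genes differed in this: in untreated replicate 5 MCM7 was highest of its group, at 172 FPKM, and PCNA lowest, at 125 FPKM. GINS1 and CDC45, parts of the replicative helicase, fell by 1.46 and 1.51 on the log2 scale (limma adjusted p = 1.55e-05 and 3.63e-05). Whether fewer cells in S phase had a part in the histone values was not tested.

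Replacement variants are made also outside S phase, mostly from polyadenylated mRNA, and stand outside the HIST symbols. Their list, which also holds the H2B gene H2BFS, had 12 tested genes, 7 called lower and 0 higher, with a median of -0.64. Over all genes tested 14.6% were called lower and 12.3% higher. H2BFS, among those called lower, was at 1.93 ± 0.74 FPKM untreated and 0.454 ± 0.253 FPKM treated. Of its treated libraries only replicate 5, at 0.808 FPKM, reached the 0.5 FPKM of the filter. Another entry of H2BFS, at 0.63 ± 0.256 FPKM untreated and 0.0788 ± 0.0257 FPKM treated, was not tested. H3F3A, which encodes H3.3, was at 133, 137, 136 and 99.5 FPKM untreated and 149, 157, 146 and 129.7 FPKM treated, and its log2 fold change of 0.20 ± 0.12 was not called (limma adjusted p = 0.221). H3F3B, the other H3.3 gene, was at 80.9 ± 29.7 and 75.2 ± 19.8 FPKM (adjusted p = 0.852). H2AFX (H2A.X), whose gene makes both a stem-loop and a polyadenylated mRNA, fell from 129 ± 24.2 to 40.2 ± 7.11 FPKM, -1.67 ± 0.23 (adjusted p = 0.000664). H2AFZ (H2A.Z) fell by 0.56, the linker H1F0 (H1.0) by 0.75, H1FX (H1.X) by 1.01 and the centromeric CENPA by 0.95 on the log2 scale.

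Genes of histone mRNA processing and control had 40 tested, 11 called lower and 3 higher, with a median of -0.18, beside the 14.6% and 12.3% of all genes tested. SLBP was at 26.6, 27.7, 25.0 and 21 FPKM untreated and 19.4, 18.4, 19.5 and 16.9 FPKM treated, a fall of 0.42 ± 0.10 on the log2 scale (limma adjusted p = 0.0142, and 0.0566 with the trend on transcript length removed). NPAT, which acts at histone gene promoters, and CASP8AP2 were not called. They were at 1.65 ± 0.76 and 1.74 ± 0.708 FPKM untreated and 1.83 ± 0.432 and 2.11 ± 0.354 FPKM treated. CDC25A and E2F1, regulators of entry into S phase, fell by 1.60 and 1.67. The 3 called higher, named after their values were seen, were the uridylyltransferases TUT4 and TUT7 and the exonuclease XRN1, at 1.08, 0.88 and 0.97 on the log2 scale. Other decay genes of the list, ERI1, UPF1, SMG1, DIS3L2 and LSM1, were not called. Of 33 tested histone chaperones 10 were called lower and 1, NAP1L1, higher, with a median of -0.27. HJURP (-1.38) and CHAF1A (-1.37) had the smallest p in limma, while MCM2 (-1.60) and ASF1B (-1.45) fell further.

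**Figure D5:**
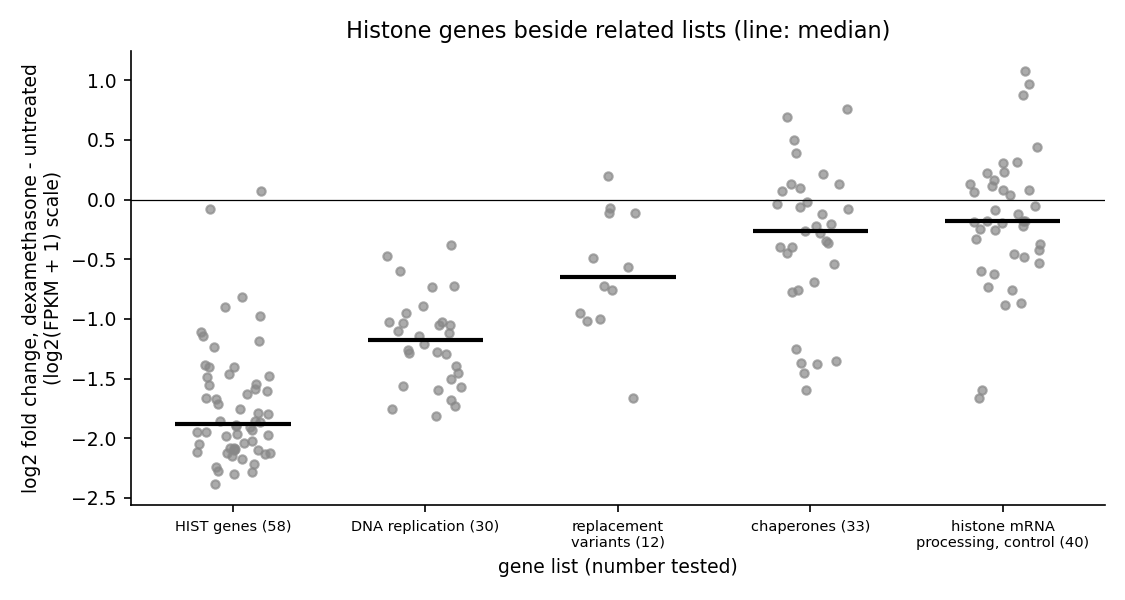
Log2 fold change (dexamethasone minus untreated, log2(FPKM + 1) scale) of each tested gene of the HIST family and of 4 related lists, with a line at each median. The histone genes lie lowest, with a median of -1.88, before the replication genes at -1.18, while the other 3 lists have medians of -0.64, -0.27 and -0.18.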

How the data were processed

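RNA was measured in 8 libraries, 4 untreated and 4 with dexamethasone. Per the submitters' processing notes, the authors used FastQC 0.11.9, cutadapt 3.4, STAR 2.7.9a on GRCh38, featureCounts of Subread 2.0.3 and DESeq2 1.32.0. The deposited values were read as FPKM from their properties, although they are described as counts. The annotation release, the use of strand and the treatment of reads that match several genes are not given in the sources used here, so members that overlap or share sequence stay uncertain. Whole fragments could not be recovered, so no count test was run.

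Libraries were brought to 1 scale with TMM factors (trims 0.3 and 0.05) and tested as log2 of the deposited values plus 1, with limma 3.58.1 in R 4.3.3 (lmFit, eBayes with trend and robust), two-sided, group as the only term. The filter was 0.5 FPKM in 4 libraries. Sums and shares use FPKM as deposited and have no test. The procedure was tested on simulated data.

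GENCODE v44 was matched by identifier for 65 members and by older symbol for 5. Stem-loops were read from the GRCh38 genome and promoters from RefSeq, GRCh38.p14.

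The members and lists were chosen with earlier results of these data known. The rule for named genes took, in each class, the 2 tested members with the highest mean, the members of HIST2, HIST3 and HIST4, those known for polyadenylated forms, those at a log2 fold change of 0 or above, the 4 with the largest falls and, in each other list, the 2 genes with the smallest p and a few textbook genes. Other members were named after their values were seen, for their share, their partner or the lack of a call. Alternatives covered pseudocount, filter, scaling, variance model, GC and length trends, the replicate number as a block, and libraries left out. A fit without the members that have transcripts of several exons was chosen after seeing the data.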

Additional observations from a re-analysis of the deposited data

Results flagged for a closer look

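In 32 of the 106 groups of 4 values examined, 1 library lay apart from the other 3 by more than a gap rule of which chance flags about 1 in 20. Untreated replicate 5 was that library in 29 and dexamethasone replicate 5 in 3. The groups share libraries and reads, so these are not separate events.

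In untreated replicate 5 the high values were 38602 FPKM for the HIST sum, and 3426, 10483, 7967, 8132 and 8593 FPKM for the H1, H2A, H2B, H3 and H4 sums. Single H1 and H2A genes high there were HIST1H1B at 358, HIST1H1C at 1389, HIST1H1E at 954, HIST1H2AB at 629.6, HIST2H2AA3 at 1749, HIST2H2AA4 at 1694, HIST2H2AB at 848, HIST2H2AC at 1101 and HIST3H2A at 62.5 FPKM. Among H2B genes they were HIST1H2BE at 172, HIST1H2BO at 1001 and HIST2H2BF at 1333 FPKM. Among H3 and H4 genes they were HIST1H3B at 2270.4, HIST2H3A at 629.7, HIST2H3C at 644, HIST2H3D at 1443, HIST1H4B at 1570.4, HIST1H4C at 1634, HIST1H4H at 1151 and HIST2H4A at 599 FPKM. Outside the family, E2F1 was high at 31.2 and H1FX at 118 FPKM, and H3F3A was low at 99.5 FPKM.

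In dexamethasone replicate 5, HIST1H2AB at 112 FPKM, HIST1H4B at 365 FPKM and the H4 sum at 2125 FPKM lay above the rest of their group.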

How the results depend on the processing

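The number of histone genes called lower was 51 to 54 over the alternatives in which all tested members were kept, and 42 of 42 without those that have transcripts of several exons. None was called higher in any of them. The check used did not settle whether the replicate numbers pair the libraries. Deviations from the group means correlated at 0.29, 0.07, 0.31 and 0.71 for numbers 1, 3, 4 and 5, all positive. Not every library correlated best with its own number. With the replicate number as a block 54 histone genes were called lower, and the count over all genes went from 3269 to 5748, or 5351 with the GC trend removed too. It was 5511 without both libraries numbered 5, and 2352 to 3835 with single libraries left out.

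The values that turned sign were all of genes that were not called, and their cause was not tested. With the GC trend removed H3F3A, NPAT, H3F3B and CASP8AP2 gave -0.045, -0.21, 0.0053 and -0.12, and the same values with the block added. With the length trend removed HIST1H2AC gave 0.013, and without both libraries numbered 5 HIST1H2AC, HIST2H4A and HIST2H4B gave 0.12, 0.076 and -0.34. With single libraries left out, values ranged from -0.21 to 0.10 for HIST1H2AC, -1.42 to 0.0015 for HIST2H4A, -0.54 to 0.39 for HIST2H4B, -2.62 to 0.42 for HIST4H4, -0.23 to 0.081 for H3F3B and -0.014 to 0.24 for NPAT. With the block HIST4H4 (-1.11, limma adjusted p = 0.00153) and HIST1H2BE (-1.14, adjusted p = 0.0099) were called, and both were lower in the treated library at each of the 4 numbers. HIST3H2BB was lost at a pseudocount of 0.1 (adjusted p = 0.0733). Without libraries numbered 5 H3F3A was called (0.19, adjusted p = 0.0486).

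How reads of identical copies and of overlapping genes were assigned is not stated, and its effect on these values was not tested.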
